A study of Mus musculus with 4 samples.

Results

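The CREC family is a group of calcium-binding proteins of the secretory pathway. Its expression was read here in the aorta of Ath29 congenic mice (apoE genotype not stated) and of apoE-/- control mice. The CREC members Rcn2, Rcn1, Rcn3, Calu and Sdf4 were found by gene symbol, older synonyms included, among probe sets annotated to a single gene. They had 10 probe sets of the 45101 on the array, and 8 of these, at least 1 for each of the 5 genes, passed the filter on low intensity that left 22518 probe sets and 11706 genes. Rcn2, Calu and Sdf4 each had 2 probe sets above the filter, Rcn1 and Rcn3 had 1.

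The 4 groups, with 1 array each, were Ath29 mice on a Western diet, Ath29 mice on chow, B6 mice on a Western diet and B6 mice on chow. Ath29 mice carry a donor segment of chromosome 9 on the C57BL/6 background and are labelled as resistant to atherosclerosis. The donor strain and the ends of the segment are not given in the labels, and the labels state no apoE genotype for them. B6 mice, the controls, are C57BL/6 apoE-/- mice, which lack apolipoprotein E and are labelled with atherosclerosis. If Ath29 mice differ from B6 mice in apoE genotype, an effect of apoE on a strain difference cannot be told apart from one of the segment. All mice were weaned onto chow at 3 weeks of age, and those of the Western diet groups received that diet, rich in fat, from 4 weeks of age for 2 weeks. How many mice gave the RNA of an array, and their sex, is not stated. The source label and the design text name aorta, while the extraction protocol names liver. With 1 array per group, a difference between groups has no replicate check, and the spread between mice is unknown.

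CREC proteins carry several EF-hand motifs, loops that bind calcium with low affinity. Most of them stay in the endoplasmic reticulum through an HDEL-type signal at the carboxyl end, which KDEL receptors recognise to bring proteins back from the Golgi apparatus. The family takes its name from Cab45, reticulocalbin, ERC-55 and calumenin, of which ERC-55 is the product of Rcn2 and Cab45 that of Sdf4. In the vessel wall, smooth muscle cells and fibroblasts, which secrete collagen and other matrix proteins, are among the cells rich in endoplasmic reticulum. Rcn2 lies on chromosome 9 and has been put forward in published work as a candidate gene at Ath29.

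The promoters of Rcn2, Rcn3 and Calu are shown because these 3 genes gave the probe sets farthest below B6 on chow. Each is the 250 bases before the annotated start, from RefSeq on GRCm38.p6 and therefore of the C57BL/6J genome, written 5′ to 3′ on the strand of the gene. Capitals mark CCAAT boxes, the letters CCAAT or, on the other strand, ATTGG, which the factor NF-Y can bind. The sequence of the donor strain was not analysed here.
Rcn2, chr9:56041595-56041844, plus strand: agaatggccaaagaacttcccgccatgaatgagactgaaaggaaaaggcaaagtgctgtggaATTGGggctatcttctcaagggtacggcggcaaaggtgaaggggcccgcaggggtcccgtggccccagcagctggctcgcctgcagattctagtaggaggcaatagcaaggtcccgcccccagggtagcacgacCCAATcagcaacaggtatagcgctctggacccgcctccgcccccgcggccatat
Rcn3, chr7:45092214-45092463, minus strand: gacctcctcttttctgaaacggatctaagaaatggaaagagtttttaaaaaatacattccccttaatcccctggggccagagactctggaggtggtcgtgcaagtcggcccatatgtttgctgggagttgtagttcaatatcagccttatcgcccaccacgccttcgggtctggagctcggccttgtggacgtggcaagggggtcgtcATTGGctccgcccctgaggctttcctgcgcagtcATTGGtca
Calu, chr6:29347856-29348105, plus strand: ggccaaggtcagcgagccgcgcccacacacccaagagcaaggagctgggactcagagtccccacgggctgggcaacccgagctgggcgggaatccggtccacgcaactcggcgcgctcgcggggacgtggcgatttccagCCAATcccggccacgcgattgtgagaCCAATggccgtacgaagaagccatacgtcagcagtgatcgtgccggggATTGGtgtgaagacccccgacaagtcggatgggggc

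These promoters held 2 CCAAT boxes in Rcn2, 2 in Rcn3 and 3 in Calu. In Rcn2 one box began 54 bases before the start on the strand of the gene, and the other lay on the opposite strand with its far end 188 bases before the start. The full endoplasmic reticulum stress element, CCAAT followed by 9 bases of any kind and CCACG, was searched on both strands. It was found in 0 of the 7 promoters of the family (1 each for Rcn2, Rcn3 and Calu and 4 for Sdf4, which overlap in part), and in 0.113% of all 32851 promoters of the table. A CCAAT box stood in 5 of the 7, against 33.8% of all promoters, and the GC box GGGCGG, which Sp factors can bind, in 5 of the 7, against 32.7%. The CCAAT count takes the same Sdf4 site from overlapping promoters more than once. Promoters were at hand for 4 of the 5 genes, with none for Rcn1. The letters CCACG alone stood in 4 of the 7, against 28.3% of all. Their share of G and C was 60% in Rcn2, 53.2% in Rcn3 and 66% in Calu, against a median of 52.4% over all promoters. They held 13, 11 and 25 CG pairs in Rcn2, Rcn3 and Calu, against a median of 6 over all promoters.

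Rcn2, the member on chromosome 9, had lower signal in Ath29 than in B6 aorta on both diets with both of its probe sets. The probe set with the stronger signal, 1422449_s_at, read 844 on Western diet and 652 on chow in Ath29 mice, against 1127 on Western diet and 1381 on chow in B6 mice, as deposited intensities. Both Ath29 arrays lay below both B6 arrays, with Ath29 chow lowest and B6 chow highest. The share of all probe sets with such a separation of the strains was not counted. After shifting the arrays to a common median, Rcn2 was 1.33-fold lower in Ath29 mice on Western diet (log2 difference -0.41) and 2.18-fold lower on chow (-1.13). On Western diet 15.2% of the 22518 probe sets had a difference as low as this or lower, and on chow 1.33% did.

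The other Rcn2 probe set, 1444248_at, had weaker signal, with 74.2 on Western diet and 60.9 on chow in Ath29 mice, against 146 on Western diet and 102 on chow in B6 mice. Both Ath29 arrays again lay below both B6 arrays, with no share over all probe sets beside it, but the highest array was B6 Western. The difference between strains was 1.96-fold on Western diet (log2 -0.97, with 2.38% of probe sets as low or lower) and 1.72-fold on chow (-0.79, with 5.10%). The 2 probe sets thus shared the direction on each diet and differed in which diet gave the larger difference. The root mean square distance between their patterns was 0.294 log2 units over the 4 arrays, against a median of 0.43 between Rcn2 and other genes. Many genes were closer to 1422449_s_at than that, among them Rcn3 at 0.258 (place 809 of 11705) and Calu at 0.290 (place 1258). The letters s_at mark a probe set that can also bind other transcripts, which 1444248_at does not carry.

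Strain was then fitted beside diet over all 4 arrays with limma. The additive model takes the strain by diet difference as its error and has 1 residual degree of freedom per probe set. For that error limma also drew on the spread of the other probe sets. The p-values therefore do not measure the spread between mice. The strain coefficient of 1422449_s_at was -0.77 ± 0.26 (SE) on the log2 scale, with an unadjusted p of 0.0106 and a limma adjusted p of 0.9999. The coefficient of 1444248_at was -0.88 ± 0.28 (SE), with an unadjusted p of 0.00891 and a limma adjusted p of 0.9999. Neither passed the threshold of 0.05 after Benjamini-Hochberg adjustment over 22518 probe sets. At an unadjusted p under 0.05, 2 of the 8 CREC probe sets were called for strain, both of Rcn2, against 3.08% of all probe sets. Without the filter on low intensity the unadjusted limma p of 1422449_s_at was 0.119, so that its call was lost. After adjustment 0 of the 8 were called, against 0.0622% of all.

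**Figure D1:**
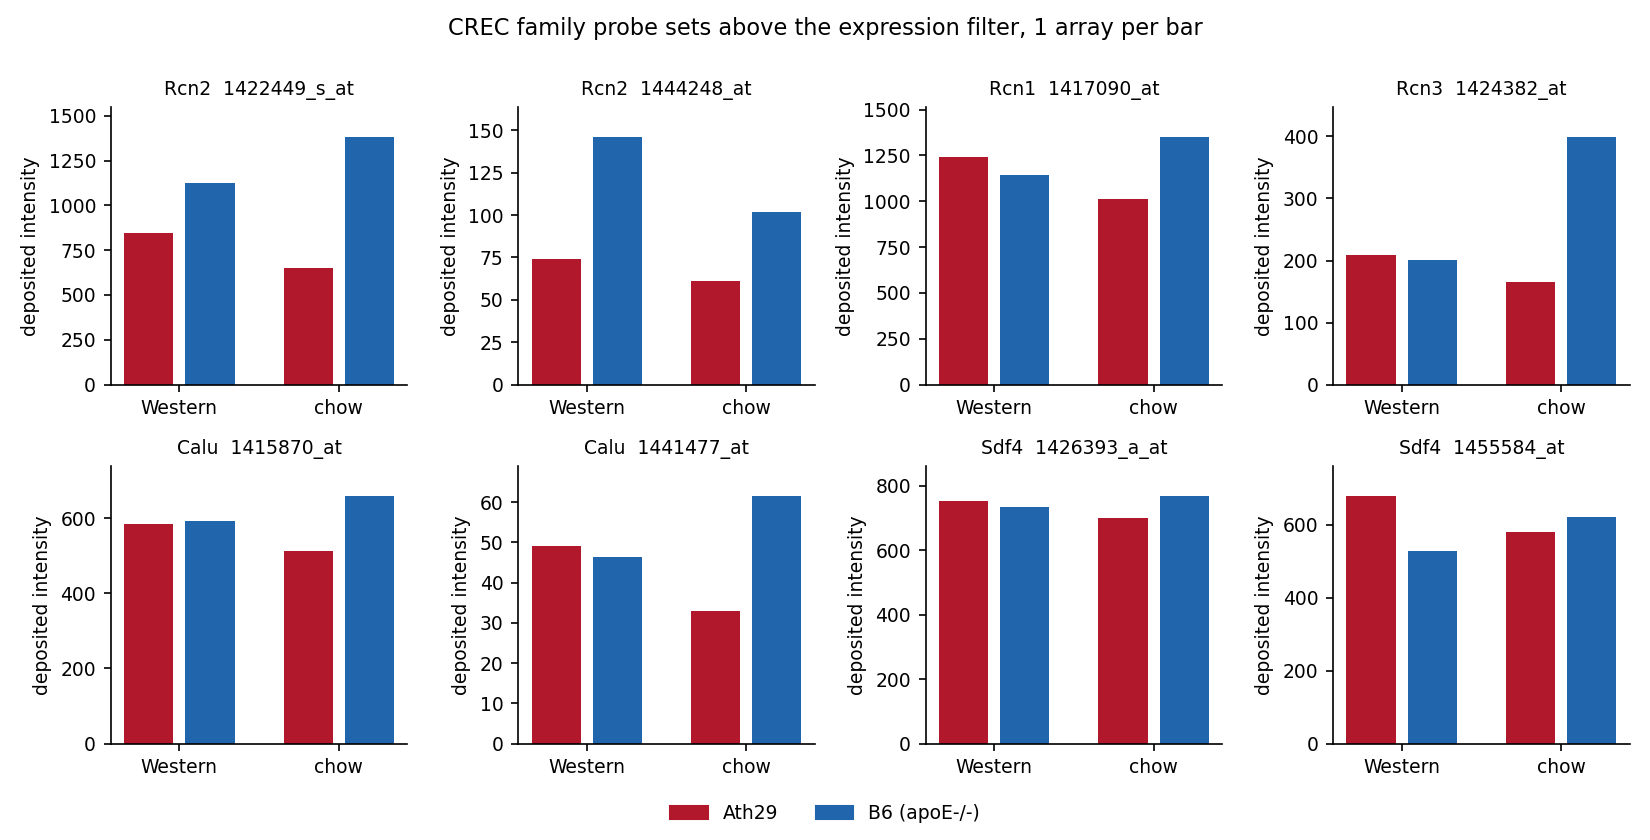
Deposited intensity (linear scale, starting at 0) of the 8 CREC probe sets above the filter, one panel per probe set, with 1 bar per array, Ath29 in red and B6 in blue, on Western diet and on chow. Rcn2 1422449_s_at reads 844 and 652 in Ath29 mice and 1127 and 1381 in B6 mice. Rcn2 1444248_at reads 74.2 and 60.9 in Ath29 mice and 146 and 102 in B6 mice.

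Rcn1, the founding reticulocalbin and a resident of the endoplasmic reticulum, differed less. Its probe set 1417090_at read 1242 on Western diet and 1012 on chow in Ath29 mice, against 1141 on Western diet and 1351 on chow in B6 mice. The arrays of the 2 strains overlapped, with B6 chow highest and Ath29 chow lowest. The log2 difference between strains was 0.13 on Western diet and -0.46 on chow. Its limma strain coefficient was -0.16, with an unadjusted p of 0.504. The second Rcn1 probe set, 1447890_at, did not pass the filter, with 9.84 and 18.6 in Ath29 mice on Western diet and chow and 12.5 and 14.7 in B6 mice on Western diet and chow.

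Rcn3, a reticulocalbin that mouse lung needs for its development around birth, gave the largest difference of the family on chow and nearly none on Western diet. Probe set 1424382_at read 209 on Western diet and 165 on chow in Ath29 mice, against 200.2 on Western diet and 399 on chow in B6 mice. The B6 chow array stood above the other 3 arrays, which lay between 165 and 209. On Western diet the log2 difference between strains was 0.07, and on chow Rcn3 was 2.49-fold lower in Ath29 mice (log2 -1.32), with 0.697% of probe sets as low or lower. The limma strain coefficient of -0.62 had an unadjusted p of 0.0922.

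Calu encodes calumenin, which is partly secreted and inhibits the vitamin K-dependent carboxylation of proteins such as matrix Gla protein. Its probe set of stronger signal, 1415870_at, read 583 on Western diet and 512 on chow in Ath29 mice, against 593 on Western diet and 658 on chow in B6 mice. Ath29 chow was lowest and B6 chow highest, while the 2 Western arrays lay within a log2 difference of -0.02. On chow this probe set was 1.33-fold lower in Ath29 mice (log2 -0.41). The weaker probe set 1441477_at read 49.1 on Western diet and 33.1 on chow in Ath29 mice, against 46.4 on Western diet and 61.5 on chow in B6 mice. It had the same lowest and highest arrays, with a log2 difference of 0.09 on Western diet and a 1.92-fold lower value in Ath29 mice on chow (-0.94, 2.82% of probe sets as low or lower). The limma strain coefficients were -0.21 and -0.42, with unadjusted p of 0.443 and 0.250.

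Sdf4 encodes Cab45, the family member of the Golgi lumen, which takes part in sorting secretory cargo. Its probe set 1426393_a_at read 752.5 on Western diet and 701 on chow in Ath29 mice, against 736 on Western diet and 768 on chow in B6 mice, which in log2 differences kept it within 0.18 in each comparison. Ath29 chow was again lowest and B6 chow highest, with log2 differences between strains of 0.04 on Western diet and -0.18 on chow. Probe set 1455584_at read 678 on Western diet and 580.1 on chow in Ath29 mice, against 529 on Western diet and 622 on chow in B6 mice. Here Ath29 Western was highest and B6 Western lowest, with log2 differences of 0.37 on Western diet and -0.14 on chow. The limma strain coefficients were -0.07 and 0.11, with unadjusted p of 0.793 and 0.685. A further Sdf4 probe set, 1448367_at, did not pass the filter and lay between 2.96 and 7.45 on the 4 arrays, below the floor of 9.60.

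Read together for strain on Western diet, 5 of the 8 CREC probe sets lay above 0 and 3 below, with a median log2 difference of 0.05 and a range from -0.97 to 0.37. Over all probe sets the median was 0.00, and 50.3% lay below 0. On Western diet 0 of the 8 were at least 2-fold higher, against 1.09% of all probe sets, and 0 were at least 2-fold lower, against 2.12%. By genes, each read from its most intense probe set, 0 of the 5 were 2-fold higher, against 0.846% of all genes, and 0 were 2-fold lower, against 2.03%.

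On chow all 8 lay below 0, with a median of -0.62 and a range from -1.32 to -0.14, while over all probe sets the median was -0.08 and 58.4% lay below 0. On chow 2 of the 8, Rcn2 1422449_s_at and Rcn3, were at least 2-fold lower in Ath29 mice, against 2.26% of all probe sets, and 0 were at least 2-fold higher, against 2.13%. By genes, 2 of the 5 were at least 2-fold lower, against 1.94% of all genes, and 0 higher, against 2.16%. These 8 values are not independent, since all come from the same pair of arrays and some are probe sets of 1 gene.

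**Figure D2:**
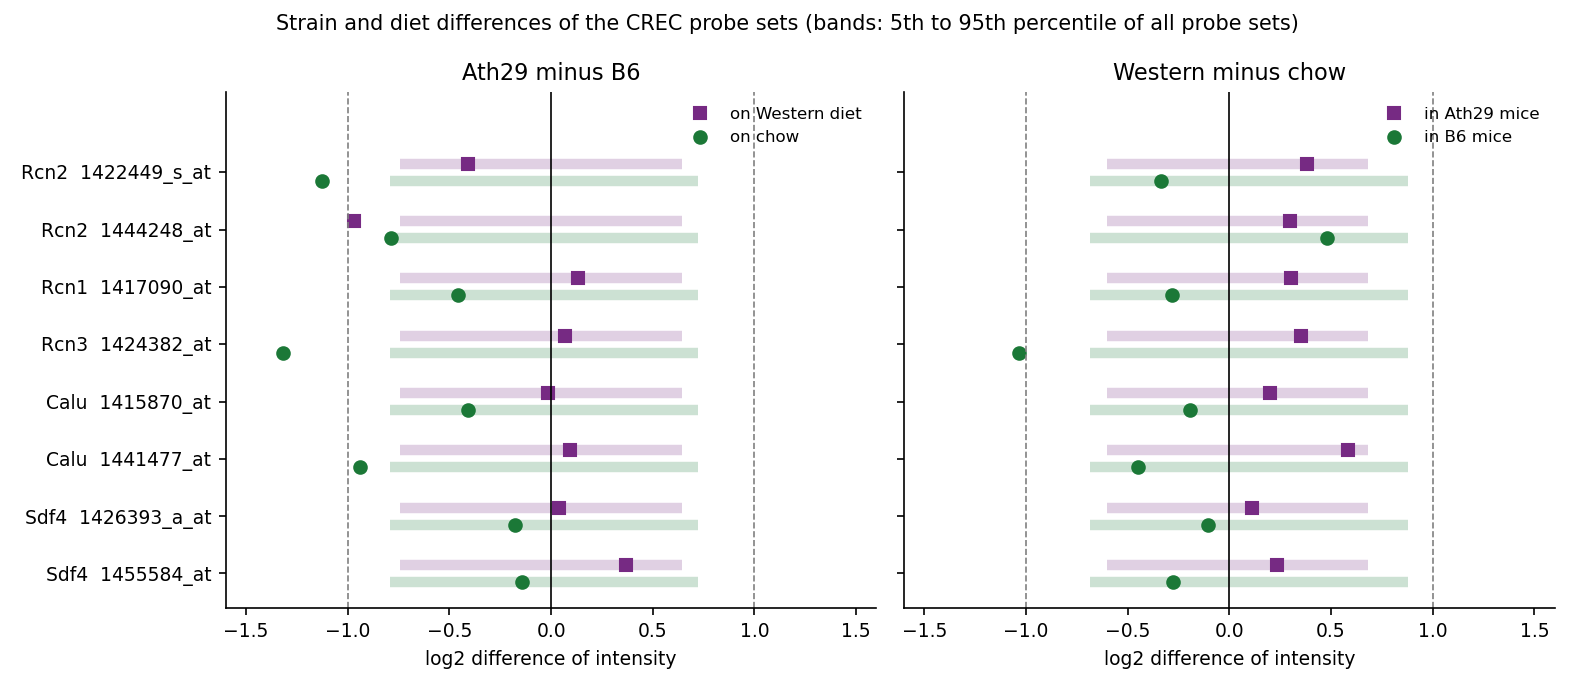
Log2 differences of the 8 CREC probe sets between strains (left, Ath29 minus B6, on Western diet and on chow) and between diets (right, Western minus chow, in Ath29 and in B6 mice). Bands span the 5th to 95th percentile of all 22518 probe sets and dashed lines mark 2-fold. On chow all 8 points lie left of 0, and Rcn2 1422449_s_at and Rcn3 lie past the 2-fold line, while on Western diet both Rcn2 probe sets lie lowest.

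The diet differences of the family had opposite signs in the 2 strains for 7 of the 8 probe sets. The share of all probe sets with opposite signs was not counted. In Ath29 mice all 8 probe sets were higher on Western diet than on chow, with a median log2 difference of 0.30 and a range from 0.11 to 0.58, where 55.8% of all probe sets were higher and the median was 0.04. The largest of these was Calu 1441477_at, 1.5-fold higher on Western diet. In Ath29 mice 0 of the 8 were at least 2-fold higher on Western diet, against 1.59% of all probe sets, and 0 were 2-fold lower, against 1.07%. By genes, 0 of the 5 passed 2-fold, against 1.33% of all genes higher and 0.854% lower.

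In B6 mice 7 of the 8 were lower on Western diet than on chow and 1 was higher, with a median of -0.28 and a range from -1.04 to 0.48. Of all probe sets 56.1% were lower, with a median of -0.05. Rcn3 was 2.05-fold lower on Western diet, with 1.15% of probe sets as low or lower, and the exception in direction was Rcn2 1444248_at at 0.48. Thus 1 of the 8 was at least 2-fold lower, against 1.34% of all probe sets, and 0 were 2-fold higher, against 3.69%. By genes 1 of the 5 was lower, against 1.17% of all genes, and 0 were higher, against 4.1%. In the limma fit, 0 of the 8 were called for diet after adjustment, against 0.0622% of all, and 0 at an unadjusted p under 0.05, against 2.54%. The lowest unadjusted p for diet was 0.198, for Rcn2 1444248_at with a coefficient of 0.39.

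The strain and diet differences use the same 4 arrays, so the low Ath29 chow value and the high B6 chow value of a probe set enter several of them. In 6 of the 8 CREC probe sets B6 chow was the highest array and Ath29 chow the lowest, against 16.1% of all probe sets, a count made after the values were seen. Those 6 include Rcn2 1422449_s_at, Rcn1, Rcn3, both Calu probe sets and Sdf4 1426393_a_at. For the family the strain difference on Western diet minus that on chow had a median of 0.55, against 0.10 for all probe sets.

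The genes next to Rcn2 on chromosome 9 were read for the same strain differences. Rcn2 stood at place 238 of 649 measured genes of the chromosome in RefSeq order, and 5 genes on each side were taken. Of these 10 neighbours 0 were at least 2-fold lower on both diets, 2 lay below 0 on both, 1 lay above 0 on both and 7 had opposite signs. Shares over all genes were not counted for this. Tspan3, the next measured gene on one side and a tetraspanin of the cell membrane, read 329 on Western diet and 327 on chow in Ath29 mice, against 335 on Western diet and 332.5 on chow in B6 mice. Its 4 arrays were nearly level, with log2 differences of -0.02 on Western diet and -0.07 on chow. Scaper, the next on the other side, differed by 0.57 on Western diet and -0.19 on chow.

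Of the remaining neighbours, Fbxo22, which encodes an F-box protein, differed by 0.08 on Western diet and -0.12 on chow, and the pseudokinase gene Peak1 by 0.41 and -0.11. Cspg4, which encodes the NG2 proteoglycan of pericytes, differed by 0.40 and -0.52, the homeobox gene Isl2 by -0.07 and 0.32, and the sorting nexin gene Snx33 by 0.43 and 0.55. Lingo1, a gene known from neurons, differed by -0.16 and -1.09, with an Ath29 chow value of 18.3 that lay below the filter level of 27.4. Its mean strain difference over both diets, -0.63, was the lowest of the 10, against -0.77 for Rcn2, and the median of the 10 was 0.05.

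Nrg4, which encodes a growth factor made by brown fat, read 85.1 on Western diet and 180 on chow in Ath29 mice, against 160 on Western diet and 45.5 on chow in B6 mice. Its strain differences of -0.91 on Western diet and 1.94 on chow had opposite signs. Etfa, a mitochondrial gene of fatty acid oxidation, differed by -1.11 on Western diet and 0.40 on chow. Beside both, the summed intensity of 8 brown fat markers was 10618 on Western diet and 13910.0 on chow in Ath29 mice, against 18144 on Western diet and 8265 on chow in B6 mice. The part of brown fat in these differences was not tested.

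**Figure D3:**
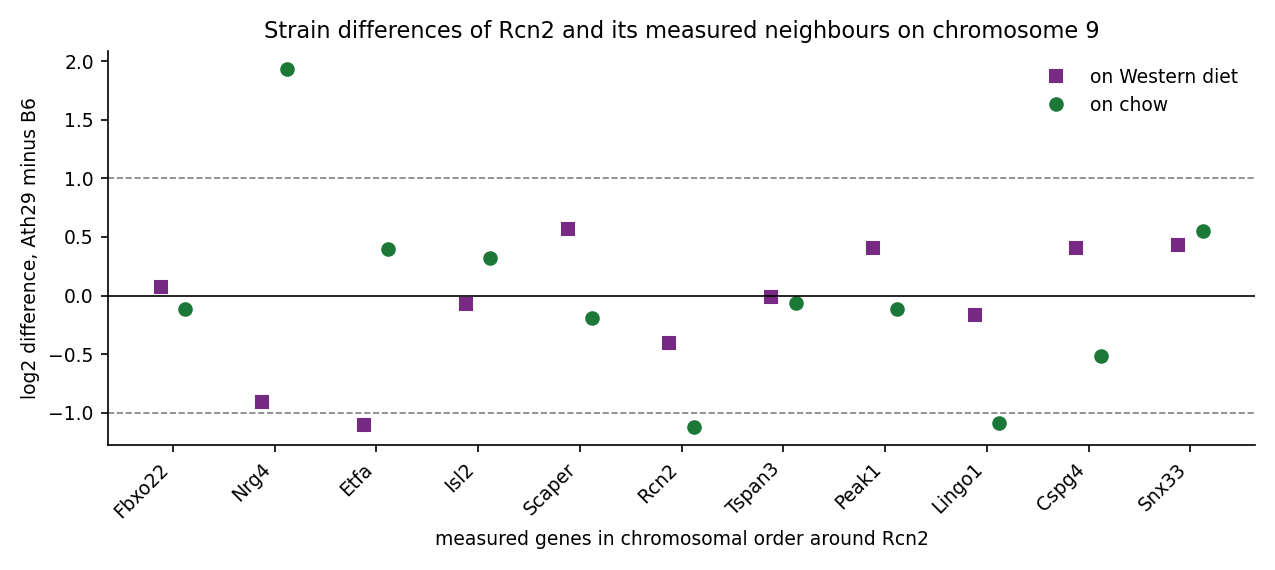
Log2 difference, Ath29 minus B6, on Western diet (squares) and on chow (circles), for Rcn2 and the 5 measured genes on each side in chromosomal order. Rcn2 lies below 0 on both diets at -0.41 and -1.13, Tspan3 lies near 0 on both, and Nrg4 lies at -0.91 and 1.94.

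The genes most like Rcn2 1422449_s_at over the 4 arrays were ranked by the root mean square distance of their log2 values, each gene centred on its own mean. The closest of 11705 genes were Sgce at 0.0437, Col19a1 at 0.0481, Spag7 at 0.0516, Lum at 0.0635, Stac at 0.0649 and Fer1l4 at 0.0689. With 4 arrays a close match takes little, and the distances are descriptions. Sgce, which encodes epsilon-sarcoglycan of the cell membrane, read 184 on Western diet and 134 on chow in Ath29 mice, against 228 on Western diet and 280.2 on chow in B6 mice. Lum, the matrix proteoglycan lumican and a fibroblast marker, read 935 on Western diet and 735 on chow in Ath29 mice, against 1224 on Western diet and 1387 on chow in B6 mice. Both had the array order of Rcn2, lowest in Ath29 chow and highest in B6 chow, which follows from choosing them by distance over these same arrays. Stac lies on chromosome 9 as well, and its Ath29 chow value of 26.1 was below the filter level.

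The other CREC genes were farther from Rcn2. Rcn3 had a distance of 0.26 (place 809), Calu of 0.29 (place 1258), Rcn1 of 0.30 (place 1527) and Sdf4 of 0.37 (place 3428). The median over all genes was 0.43.

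Gene lists of the compartment in which CREC proteins act were set beside them. ER chaperones that bind calcium had 12 of 14 genes measured, of which 0 were 2-fold different on either diet and 9 lay below 0 on each. Their median strain difference was -0.15 on Western diet and -0.22 on chow, where all genes had 0.00 and -0.08. Calr, the lumenal calcium buffer calreticulin, read 2458 on Western diet and 2153 on chow in Ath29 mice, against 2877 on Western diet and 3208 on chow in B6 mice. Its log2 differences were -0.22 and -0.62. The chaperone Hspa5 (BiP) differed by -0.20 on Western diet and -0.21 on chow, the disulfide isomerase P4hb by -0.15 and -0.57 and the membrane-bound calnexin gene Canx by -0.14 and -0.24.

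Calcium pumps, release channels and store sensors had 14 of 20 genes measured, with medians of -0.34 on Western diet and -0.27 on chow. Of these 2 were at least 2-fold lower in Ath29 mice on Western diet and 2 on chow, in each case Pln and Sln, the small inhibitors of the SERCA pump. Over all genes 2.03% were at least 2-fold lower on Western diet and 1.94% on chow. Pln read 228 on Western diet and 150.2 on chow in Ath29 mice, against 988 on Western diet and 292 on chow in B6 mice. Sln read 31.3 on Western diet and 35.8 on chow in Ath29 mice, against 2209 on Western diet and 81.3 on chow in B6 mice, and was named after its values were seen.

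In both genes the B6 Western array stood far above the others, and the summed intensity of 7 heart muscle markers was 474 on Western diet and 697 on chow in Ath29 mice, against 11552 on Western diet and 769 on chow in B6 mice. The part of heart muscle in the values of the B6 Western array was not tested. Atp2a2, the SERCA pump of muscle and non-muscle cells to which calumenin can bind, differed by -0.37 on Western diet and -0.17 on chow. Atp2a3 differed by 0.22 and -0.46, Tmco1, a channel gene of the ER membrane, by -0.58 and -0.33, and Tmbim6, which encodes an ER protein that limits its calcium load, by -0.16 and -0.01.

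Golgi and secretory EF-hand proteins outside the CREC family had 12 of 13 genes measured. On Western diet 9 of the 12 lay above 0 with a median of 0.13, and on chow 11 lay below 0 with a median of -0.31. Of all probe sets 49.7% lay above 0 on Western diet and 58.4% below 0 on chow. Of the 12, 1 was at least 2-fold lower on chow, Sparcl1, an extracellular matrix glycoprotein, named after its values were seen, which read 1800.2 on Western diet and 1305 on chow in Ath29 mice, against 2429 on Western diet and 2539 on chow in B6 mice. Its log2 difference between strains was -0.42 on Western diet. On chow Sparcl1 was 2-fold lower in Ath29 mice, and 1.94% of all genes were at least 2-fold lower. Sparc itself, which binds collagen, differed by 0.14 on Western diet and -0.16 on chow, Fkbp9, an ER prolyl isomerase, by 0.05 and -0.14, and Fstl1, a secreted glycoprotein, by 0.28 and -0.05.

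The HDEL and KDEL retrieval list had 8 of 8 genes measured, 0 of them 2-fold different, with medians of 0.12 on Western diet and -0.20 on chow. The KDEL receptor genes Kdelr1 and Kdelr2 differed by 0.03 and 0.08 on Western diet and by -0.21 and -0.20 on chow. Serpinh1, the collagen chaperone HSP47, differed by 0.00 on Western diet and -0.50 on chow, and the prolyl isomerase gene Ppib by 0.18 and -0.16.

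Vitamin K carboxylation, the process that calumenin inhibits, had 8 of 10 genes measured, with medians of 0.02 on Western diet and -0.33 on chow. Mgp, the matrix Gla protein that keeps arteries from calcifying, read 5117 on Western diet and 4037 on chow in Ath29 mice, against 5532 on Western diet and 6023 on chow in B6 mice. It was lowest in Ath29 chow and highest in B6 chow, with log2 differences of -0.10 and -0.62. Vkorc1, which recycles vitamin K, differed by 0.09 on Western diet and -0.14 on chow, Gas6, a ligand of TAM receptors, by 0.23 and -0.62, and Pros1, protein S, by -0.31 and -0.84. Of the 8, 1 was 2-fold higher on chow, Prrg2, at a log2 difference of 1.77, named after its values were seen, with a B6 chow value of 13.5 that lay below the filter level. Over all genes 2.16% were at least 2-fold higher on chow.

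Fibrillar collagen synthesis had 13 of 15 genes measured and 0 of them 2-fold different between strains. On Western diet 12 of the 13 lay above 0 with a median of 0.25, and on chow 12 lay below 0 with a median of -0.16. In B6 mice all 13 were lower on Western diet than on chow, with a median of -0.45. Of all probe sets 56.1% were lower on Western diet in B6 mice. For strain, 49.7% of all probe sets lay above 0 on Western diet and 58.4% below 0 on chow. Col1a1, a chain of type I collagen, had a log2 difference between strains of 0.52 on Western diet and -0.16 on chow, and Col1a2, Col3a1 and Col5a2 had 0.17, 0.11 and 0.35 on Western diet and -0.16, -0.13 and -0.16 on chow.

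**Figure D4:**
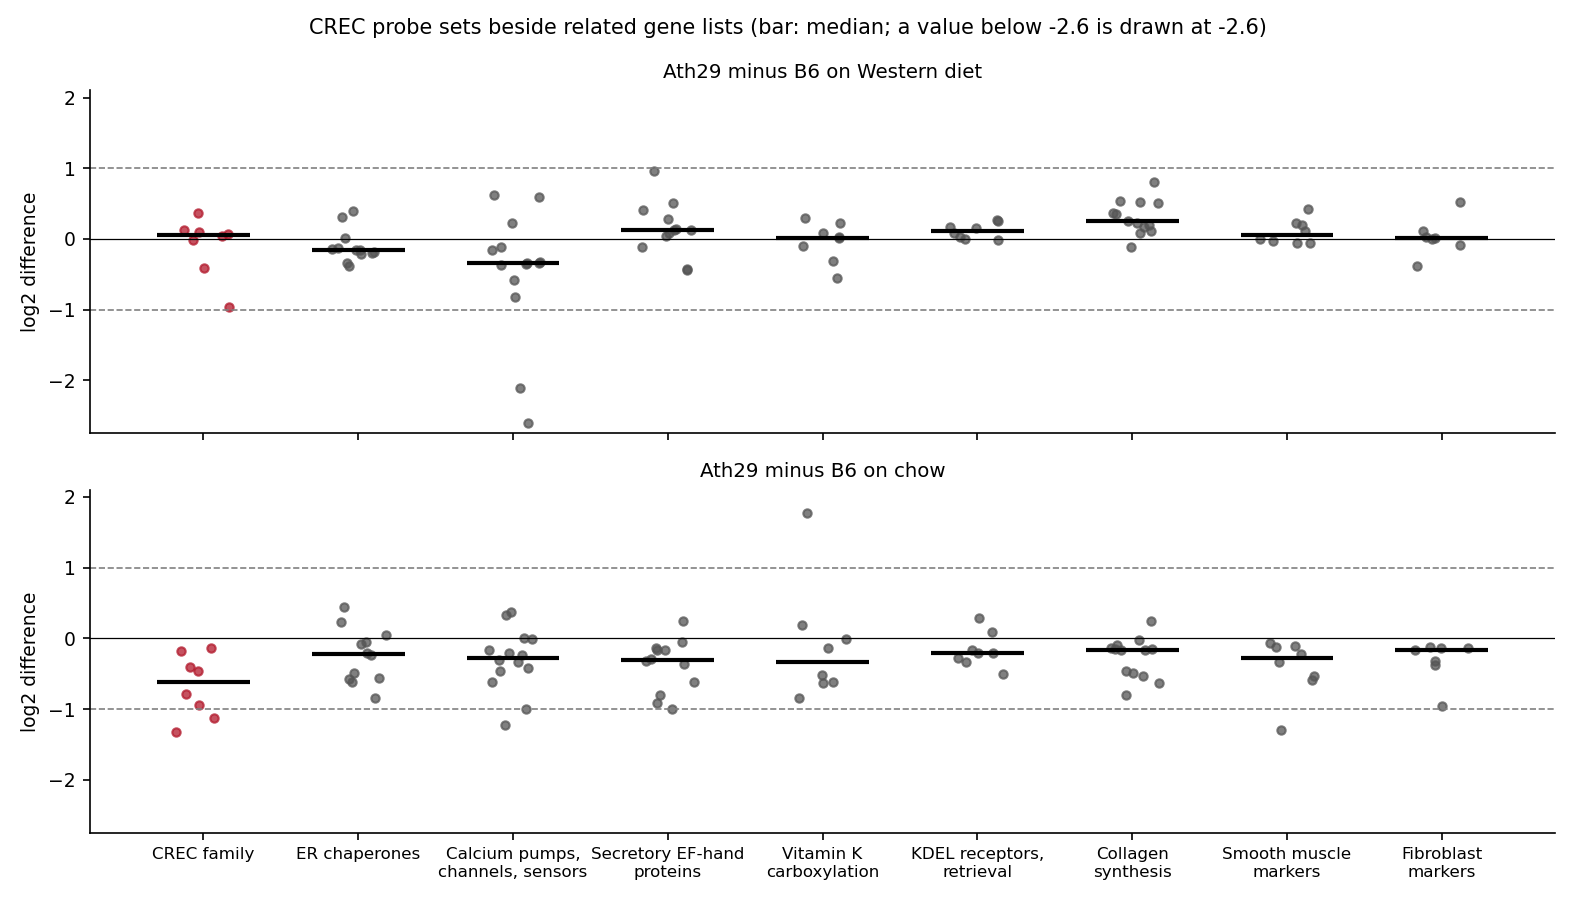
Log2 difference, Ath29 minus B6, on Western diet (top) and on chow (bottom), for the 8 CREC probe sets (red) and for the genes of 6 related lists and 2 marker lists (grey), with horizontal bars at the medians. On chow the CREC median lies at -0.62 and the list medians between -0.33 and -0.16, and on Western diet the CREC median lies at 0.05. The units differ, since the CREC median is over probe sets and each list gene is read from its most intense probe set. Read by that rule on chow, Rcn2 lies at -1.13, Rcn1 at -0.46, Rcn3 at -1.32, Calu at -0.41 and Sdf4 at -0.18.

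The tissue was read from marker genes. The summed intensity of 8 smooth muscle markers was 23955 on Western diet and 21911 on chow in Ath29 mice, against 23525 on Western diet and 25770 on chow in B6 mice, the same lowest and highest arrays as in most CREC probe sets. On chow 8 of these 8 markers and 7 of 7 fibroblast markers lay below 0 for strain, with medians of -0.28 and -0.16. Of all probe sets 58.4% lay below 0 on chow, and the median was -0.08. The fibroblast sum was 25390.2 on Western diet and 25143 on chow in Ath29 mice, against 24485 on Western diet and 28400.5 on chow in B6 mice. In whole aorta, fewer cells of a type and less RNA per cell cannot be told apart, and the part of cell composition in the CREC differences was not tested.

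Among the other markers, 7 macrophage markers summed to 5842 on Western diet and 4362 on chow in Ath29 mice, against 5915 on Western diet and 3271 on chow in B6 mice. White fat markers (5 measured) summed to 14609.5 on Western diet and 16092 on chow in Ath29 mice, against 17911 on Western diet and 13520.0 on chow in B6 mice, with median strain differences of -0.65 and 0.58. The 8 brown fat markers given above had medians of -0.99 on Western diet, with 8 of 8 lower in Ath29 mice, and 1.16 on chow, with 8 of 8 higher. Of all probe sets 50.3% were lower in Ath29 mice on Western diet and 41.5% higher on chow. The part of fat in the CREC differences was not tested.

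Of 8 hepatocyte markers 5 (Apoa1, Ttr, Tat, Ahsg and Fgb) were below the filter, and Alb, the defining one, lay between 33.0 and 64.6. Serpina1c lay between 29.6 and 44.0. Cyp2e1, which fat also expresses, was high, at 2874 on Western diet and 4604 on chow in Ath29 mice, against 4891 on Western diet and 2490.0 on chow in B6 mice, and made up most of the hepatocyte sum. The array's control probe sets for actin gave ratios of signal near the 3′ end of the transcript to its middle of 7.62 on Western diet and 10.2 on chow in Ath29 mice, against 5.63 on Western diet and 5.10 on chow in B6 mice. The same ratio for Gapdh was 10.6 and 8.87 in Ath29 mice on Western diet and chow, against 9.54 and 9.23 in B6 mice on Western diet and chow. The Ath29 chow array, lowest in 7 of the 8 CREC probe sets, thus had the highest actin ratio and the lowest Gapdh ratio, and the part of RNA quality in the CREC differences was not tested.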

How the data were processed

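The values deposited for 4 Affymetrix mouse arrays, 1 per group, are linear intensities, as their range shows. How the authors summarised, background-corrected and normalized these intensity values is not given in the sources used here. The platform annotation gave 1 symbol to 34958 of 45101 probe sets, several to 932, which were left unnamed, and 64 are controls. A total of 34897 of the single symbols were found in a RefSeq gene table of GRCm38.p6, which gave gene order and promoters. No coordinates of probe sets are given, since the deposited table names no build.

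Printed intensities are as deposited. For differences they were taken to log2, and factors of 0.990 to 1.02 brought the array medians together. A floor was set at the 25th percentile of all values (9.60). Probe sets with a mean log2 above the median of probe sets (4.78, or 27.4 linear) were kept, and a gene was read from its kept probe set of highest mean. Differences are Ath29 minus B6 and Western minus chow. With 1 array per group a single difference has no test and is set beside the share of all probe sets past 2-fold. limma 3.58.1 (R 4.3.3, lmFit, eBayes with trend) fitted strain and diet without interaction, two-sided, with Benjamini-Hochberg adjustment over 22518 probe sets. The fit was also run on simulated arrays with a strain effect far larger than the coefficients of Rcn2. That run cannot show how the fit performs at effects of the size seen here. The number of arrays limits the precision.

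Named genes were every probe set of the 5 members, the 4 most intense genes of each list and those 2-fold different in the same direction in both strain or both diet differences, 5 neighbours on each side of Rcn2, and the 6 genes closest to it. The members, lists and rules were chosen with earlier results of these data known. Python 3.11.15 with numpy 2.4.6, pandas 2.3.3 and matplotlib 3.10.9 did the rest.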

Additional observations from a re-analysis of the deposited data

Results flagged for a closer look

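In 7 of the 8 CREC probe sets above the filter the strain difference or the diet difference had one sign in one group of mice and the opposite sign in the other, which singled them out here. How many of all probe sets meet this rule was not counted, so it is not a trait particular to the family. Given as the log2 strain difference on Western diet minus that on chow, the values were 0.72 for Rcn2 1422449_s_at, 0.59 for Rcn1, 1.39 for Rcn3, 0.39 for Calu 1415870_at, 1.03 for Calu 1441477_at, 0.22 for Sdf4 1426393_a_at and 0.51 for Sdf4 1455584_at. The exception was Rcn2 1444248_at at -0.18, which lay below B6 in Ath29 mice on both diets and above chow on Western diet in both strains. Among the neighbours of Rcn2, Nrg4 had the value -2.84, with strain differences past 1.5-fold in opposite directions on the 2 diets. None of these was tested, since 1 array per group leaves no error for the strain by diet difference.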

How the results depend on the processing

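No paired analysis was possible because each group has 1 array and the labels give no replicate numbers. The CREC differences were recomputed without a shift, with quantile normalization, with the 75th percentile in place of the median, with other floors, without a filter or with one at the 75th percentile, with gene means over probe sets, with no probe sets of the s_at, x_at and a_at kinds, and, chosen after seeing the data, a common median of the brightest probe sets, those above the 75th percentile. Of the 8 CREC probe sets above the main filter, each that a setting retained lay below 0 for strain on chow. These were 8 under most settings, 6 with the stricter filter and 6 without the s_at, x_at and a_at kinds. The 5 gene means lay below 0 too. Without a filter, the weak probe sets Rcn1 1447890_at and Sdf4 1448367_at came in at 0.30 and 0, the latter under the floor on all 4 arrays. Rcn2 1422449_s_at ranged from -0.42 to -0.31 on Western diet and from -1.13 to -1.01 on chow, 1444248_at from -0.98 to -0.94 and from -0.79 to -0.68, and Rcn3 on chow from -1.32 to -1.21. With gene means, which take in probe sets below the filter, Rcn2 was at -0.69 for strain on Western diet, against -0.41, and at 0.07 for diet in B6 mice, against -0.33. Rcn1 was at -0.08 for strain on chow, against -0.46, at -0.10 on Western diet, against 0.13, and at -0.30 for diet in Ath29 mice, against 0.31. Calu on Western diet was at 0.04, against -0.02. The number of CREC probe sets at least 2-fold lower on chow, 2 in the report, was 1 without the s_at, x_at and a_at probe sets and 4 at 1.5-fold, namely both of Rcn2, Rcn3 and Calu 1441477_at. The number of probe sets on Western diet was 1 at 1.5-fold, Rcn2 1444248_at, against 0, and that for diet in B6 mice was 0 with no shift, against 1. The share of all probe sets past 1.5-fold was not counted, so the counts at 1.5-fold have nothing to be judged against. The number of probe sets that limma called for strain, 14, was 1 with quantile normalization, 1 with no shift, 2 with the 75th percentile, 0 with no filter, 5 with the stricter filter, 1 with the brightest probe sets and 4 without the trend. For diet, 14, these were 0 with quantile normalization, 1 with no shift, 1 with the 75th percentile, 0 with no filter, 1 with the brightest probe sets and 1 without the trend. The cause was not tested. The unadjusted strain p of 1422449_s_at ranged from 0.0102 to 0.119, its highest with no filter, and that of 1444248_at from 0.00881 to 0.0260, and no adjusted p was under 0.902. Scaling to the brightest probe sets moved the median strain difference on chow over all probe sets to 0.03, against -0.08, and the split of 2-fold calls to 663 higher and 322 lower, against 479 and 510. The common 75th percentile gave 575 and 394, and a filter at it 170 and 119. For diet in Ath29 mice the brightest probe sets gave 288 higher and 319 lower, against 359 and 241. Without the B6 Western array, which carried the heart muscle signal, the strain difference rests on chow alone. Weak signal limits Calu 1441477_at, whose values of 33.1 to 61.5 lie close to the filter level of 27.4.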
